A study of Mus musculus with 2 samples.

Results

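The 10 genes described here are 6 genes known as targets of the tumour suppressor p53 (Cdkn1a, Mdm2, Ccng1, Gdf15, Sesn2 and Trp53inp1), the p53 gene Trp53 itself, and the 3 Gadd45 stress genes (Gadd45a, Gadd45b and Gadd45g). They were taken by gene symbol from 28233 genes with a symbol on the array, and all 10 were represented. RNA of immortalized mouse embryonic fibroblasts (MEFs, strain C57BL/6 x B6:129 Ola) was measured on 2 dual-colour Agilent arrays, to learn how the response to serum depends on THOC5, a subunit of the THO complex that couples transcription to mRNA processing and export. Control and THOC5-depleted cells came from the same line, Rosa26ERT2 Cre: THOC5 (flox/flox), so both groups carried the floxed alleles and the tamoxifen-dependent Cre expressed from the Rosa26 locus, and only the THOC5-depleted culture received tamoxifen (2 days per the labels). On each array, Cy3 carried serum-starved, unstimulated cells and Cy5 carried cells given fetal calf serum for 1 h. The labels call the control cells wildtype, and how the line was immortalized is not given in the sources used here.

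There was 1 array per condition, so no value below has a replicate check and no test between conditions was made. The condition cannot be told apart from the position of the array on the slide, from the culture, or from tamoxifen itself. Stimulated cells were in Cy5 on both arrays and the dyes were not swapped. A serum ratio therefore cannot be told apart from a difference between the dyes or between the cultures compared on an array. The Thoc5 probe had processed signals of 4808 (Cy3) and 3047 (Cy5) on the control array and 546 and 455 on the THOC5-depleted array. After scaling between arrays its level was 7.12-fold lower in unstimulated and 5.41-fold lower in stimulated THOC5-depleted cells, and whether the probe lies inside the floxed part was not analysed here. Each array held 43020 spots, of which 62.1% to 64.4% were called well above background in a channel, and no spot was saturated. All 10 fibroblast markers examined were well above background in control cells and 9 of 10 in THOC5-depleted cells, where Lum was not, and their summed signals ran from 357900 to 485400 over the 4 channels. In unstimulated THOC5-depleted cells the scaled level of Col3a1 was 2.19-fold lower, those of Col1a2 and Postn were 1.19-fold and 1.33-fold lower, and that of Thy1 was 1.19-fold higher, with 4 of the 10 markers higher and 6 lower. Lum had signals of 36.2 and 25.9 in control and 7.88 and 9.19 in THOC5-depleted cells. Of the 4 epithelial markers, 2 or 3 were well above background in a control channel and 1 in each THOC5-depleted channel, with summed signals of 68.9 to 101 and of 40.3 to 51.0, and Cdh1 was above it in none. Epcam had signals of 32.1 and 32.6 in control and 5.32 and 6.44 in THOC5-depleted cells, and Cldn4 was above background in stimulated control cells alone (22.6), whereas Krt18 was above it throughout (26.6 to 42.4). Among blood markers, Itgam had signals of 6314 and 8178 in control and 7481 and 8700 in depleted cells. Ptprc and Cd68 were well above background in THOC5-depleted cells alone, at signals of 14.4 to 25.96. The summed signals ran from 887 to 1136 for 4 endothelial, from 41.6 to 51.7 for 3 muscle and from 3625 to 5664 for 3 neural markers. Cdh5 was 1.78-fold lower in unstimulated and 2.18-fold lower in stimulated THOC5-depleted cells, and Kdr, Myod1, Tubb3 and Sox10 differed by less than 1.2-fold in both. The part of other cell types in the results was not tested.

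p53 is a transcription factor that is kept low by the ubiquitin ligase Mdm2 and accumulates after DNA damage and other stress. It then activates genes for growth arrest, repair, metabolism and its own inhibitor. Several of these genes also answer to growth factors or to the stress factor ATF4 without p53, and in starved fibroblasts Cdkn1a is known as a gene that serum raises quickly. The Gadd45 proteins are small acidic proteins that bind the kinase Map3k4, the replication clamp Pcna and the mitotic kinase Cdk1, and the 3 genes respond to different stress and growth signals.

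Promoter sequences are shown for Cdkn1a, Mdm2, Gadd45b and Gadd45g, which serum raised by 2-fold or more in control cells at signals far from background, and for Gadd45a, which it did not raise. RefSeq (GRCm38.p6) gave 11 start sites for 9 of the 10 genes, and the 250 bases before each were searched on both strands for 9 motifs. The capitals mark matches to the p53 decamer, of which p53 binds a pair, to the Sp1 box (GGGCGG, or CCGCCC on the other strand), to the TATA box (TATAAA) and to the ATF4 element (TGATGNAA, read here as TTGCATCA on the other strand). The windows are Cdkn1a at chr17:29090729-29090978 (upstream start) and chr17:29093519-29093768 (downstream start) on the + strand, Mdm2 at chr10:117710759-117711008 on the - strand, Gadd45a at chr6:67037408-67037657 on the - strand, Gadd45b at chr10:80929841-80930090 on the + strand and Gadd45g at chr13:51846425-51846674 on the + strand.
Cdkn1a, upstream start: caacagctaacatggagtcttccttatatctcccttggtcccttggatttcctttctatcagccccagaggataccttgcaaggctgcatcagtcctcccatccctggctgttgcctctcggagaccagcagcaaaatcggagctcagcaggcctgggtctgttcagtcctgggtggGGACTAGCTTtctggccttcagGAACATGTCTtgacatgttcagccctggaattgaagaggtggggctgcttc
Cdkn1a, downstream start: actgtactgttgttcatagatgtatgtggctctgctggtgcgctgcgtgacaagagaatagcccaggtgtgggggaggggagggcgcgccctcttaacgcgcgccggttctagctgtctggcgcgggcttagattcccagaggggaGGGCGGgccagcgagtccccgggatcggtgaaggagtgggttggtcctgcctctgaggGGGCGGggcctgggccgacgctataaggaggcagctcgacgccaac
Mdm2: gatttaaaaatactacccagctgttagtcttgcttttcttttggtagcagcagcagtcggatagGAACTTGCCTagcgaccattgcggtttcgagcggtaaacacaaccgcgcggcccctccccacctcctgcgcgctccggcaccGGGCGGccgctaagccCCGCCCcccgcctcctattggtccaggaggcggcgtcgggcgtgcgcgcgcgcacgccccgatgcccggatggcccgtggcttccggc
Gadd45a: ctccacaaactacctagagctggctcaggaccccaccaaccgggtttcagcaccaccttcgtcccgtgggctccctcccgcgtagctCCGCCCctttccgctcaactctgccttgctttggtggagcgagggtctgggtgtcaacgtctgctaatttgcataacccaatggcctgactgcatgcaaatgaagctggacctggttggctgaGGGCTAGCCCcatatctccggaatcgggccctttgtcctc
Gadd45b: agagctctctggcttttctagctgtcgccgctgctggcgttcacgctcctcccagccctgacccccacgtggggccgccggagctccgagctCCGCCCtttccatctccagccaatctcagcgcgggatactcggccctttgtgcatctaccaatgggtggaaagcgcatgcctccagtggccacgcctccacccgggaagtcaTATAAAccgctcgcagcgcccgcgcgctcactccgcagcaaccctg
Gadd45g: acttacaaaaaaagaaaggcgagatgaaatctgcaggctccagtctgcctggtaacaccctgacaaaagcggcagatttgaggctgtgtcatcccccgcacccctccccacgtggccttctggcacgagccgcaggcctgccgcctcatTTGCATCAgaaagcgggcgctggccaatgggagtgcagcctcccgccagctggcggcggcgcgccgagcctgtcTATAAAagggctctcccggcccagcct

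The window of the upstream Cdkn1a start held 2 p53 decamers, GGACTAGCTT from 73 to 64 bases and GAACATGTCT from 51 to 42 bases before the start. The downstream window held none, and instead 2 Sp1 boxes, at 104 to 99 and 46 to 41 bases before its start. Mdm2 had the decamer GAACTTGCCT from 186 to 177 bases before its start and 2 Sp1 boxes. The decamer was found in 5 of the 11 windows of these genes (also those of Ccng1, Trp53 and Gadd45a) and in 7.13% of all 32851 windows of that length. In Gadd45a it was GGGCTAGCCC, from 40 to 31 bases before the start.

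Gadd45b and Gadd45g, which serum raised in control cells, each had a TATA box, ending 41 and 22 bases before the start, and Gadd45a had none. TATAAA was found in 3 of the 11 windows and in 12.4% of all windows. The other window was that of Trp53, on the reverse strand, a gene that serum did not raise. No window of Cdkn1a, Mdm2 or Gdf15, which serum raised by 2-fold or more in control cells, held TATAAA. The Sp1 box was found in 5 of 11 and in 32.7% of all. The ATF4 element was found in the Gadd45g window alone (3.45% of all windows). The motifs of serum response factor (CArG box, 1.47% of all windows), AP-1 (TGANTCA with C or G at N, 4.46%), CREB (TGACGTCA, 1.55%), EGR (GCGNGGGCG with G or T at N, 3.06%) and NF-kB (0.225%) were in none of the 11. The matches did not overlap each other, and a match describes letters in these windows, not a bound site. Neither Gdf15 window held any of the 9 motifs.

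The question was first how serum changed these genes in control cells. In 1 h, 5 of the 10 genes rose by 2-fold or more (Cdkn1a, Gadd45g, Gdf15, Gadd45b and Mdm2) and 0 fell by as much. Over all 18770 genes measurable on the control array, 2.89% rose and 2.29% fell by this rule, which asks for a 2-fold serum ratio (Cy5 over Cy3 processed signal) and for at least 1 of both channels well above background. The median serum log2 ratio was 0.85 over the 10 genes and -0.03 over all genes. Every one of the 10 was well above background in all 4 channels on the brightest of its probes, which was the probe used for genes with more than 1.

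Cdkn1a, which encodes the cyclin-dependent kinase inhibitor p21, had the highest serum ratio of the 10. Its main probe (chr17:29237377-29237436, mm9, + strand) was printed as 10 spots and gave mean signals of 252 unstimulated and 1789 after serum in control cells, and 350 and 733 in THOC5-depleted cells. The control culture was thus lowest without serum and highest with it, and both THOC5-depleted samples lay between. The serum ratio was 7.10 in control cells (log2 2.83 ± 0.34, the scanner software's own error for 1 array, which is technical only), and single spots gave 5.20 to 7.81. This placed Cdkn1a at rank 62 of 18770 genes. In THOC5-depleted cells the ratio was 2.10 (log2 1.07 ± 0.23, spots 1.99 to 2.16).

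A second Cdkn1a probe (chr17:29235299-29235358, mm9) was not well above background without serum on either array, at signals of 2.40 and 4.18. With serum it gave 33.5 in control and 18.7 in THOC5-depleted cells, so the serum ratio was at least 2.98-fold and at least 1.67-fold. These bounds take, for Cy3, the weakest signal that the software still called well above background. The probe read in the same direction as the main probe on both arrays. Another probe (chr17:29227986-29228045, mm9), which lies farther upstream, was not well above background in any channel, with signals from 2.26 to 6.21.

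Mdm2, the ubiquitin ligase that marks p53 for degradation and is itself a p53 target, was read at chr10:117126010-117126069 (mm9, - strand). Its signals were 10055 and 23337 in control cells, without and with serum, and 9297 and 13473 in THOC5-depleted cells. The unstimulated values lay close together and the stimulated value of control cells stood highest. The serum ratio was 2.32 in control cells (log2 1.21 ± 0.23) and 1.45 in THOC5-depleted cells (log2 0.54 ± 0.21).

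Gdf15, a secreted factor of the TGF-beta superfamily that p53 and ATF4 both raise, was read at chr8:73153293-73153352 (mm9, - strand) close to the detection limit. Its signals were 12.03 and 29.7 in control cells and 25.8 and 55.2 in THOC5-depleted cells, while the lowest signals called well above background ranged from 11.2 to 14.0 by channel. The stimulated value was the higher on both arrays, with serum ratios of 2.47 (log2 1.30 ± 0.36) and 2.14 (log2 1.10 ± 0.26). With signals raised to a floor of 50 these log2 ratios became 0.00 and 0.14, and after another background correction (normexp with an offset of 50, then loess) 0.40 and 0.56, so the calls on Gdf15 depend on how weak signals are handled.

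**Figure D1:**
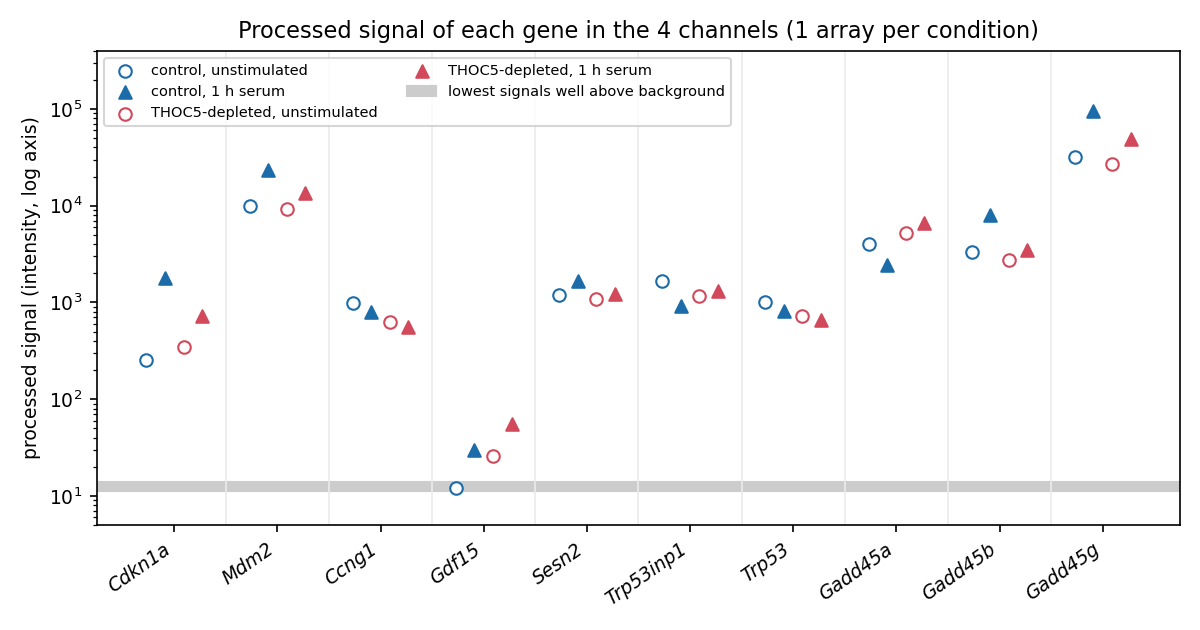
Processed signal (intensity, log axis) of the brightest probe of each gene in the 4 channels, with open circles for unstimulated and triangles for serum-stimulated cells, blue for control and red for THOC5-depleted cells, and a grey band for the lowest signals called well above background. Gdf15 has signals of 12.03 to 55.2, the lowest of them within the band (11.2 to 14.0), whereas Cdkn1a, Mdm2, Gadd45b and Gadd45g lie far above it, and in each of these 4 genes the blue triangle is the highest point.

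Among the growth arrest and DNA damage genes, the 3 paralogues did not go the same way. Gadd45g (chr13:51943733-51943792, mm9, + strand) had signals of 31767 and 96266 in control cells and 26721 and 49050 in THOC5-depleted cells, without and with serum. Its serum ratio was 3.03 in control cells (log2 1.60 ± 0.25) and 1.84 in THOC5-depleted cells (log2 0.88 ± 0.22). Gadd45b (chr10:80394367-80394426, mm9, + strand) had signals of 3364 and 8031 in control cells and 2766 and 3460 in THOC5-depleted cells. In both genes the stimulated control cells stood above the other 3 samples, and the serum ratio of Gadd45b was 2.39 (log2 1.26 ± 0.23) against 1.25 (log2 0.32 ± 0.21).

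Gadd45a, the paralogue best known as a direct p53 target, was read at chr6:66985376-66985435 (mm9, - strand). Its signals were 3996 and 2434 in control cells, without and with serum, and 5222 and 6566 in THOC5-depleted cells. Stimulated control cells were the lowest of the 4 samples and stimulated THOC5-depleted cells the highest. The serum ratio was 0.609 in control cells (log2 -0.72 ± 0.21) and 1.26 in THOC5-depleted cells (log2 0.33 ± 0.21).

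Trp53inp1, which encodes a nuclear protein that promotes p53 phosphorylation and also acts in autophagy, had the lowest serum ratio of the 10 in control cells. Its main probe (chr4:11101174-11101233, mm9, + strand) gave 1655 and 924 in control cells and 1163 and 1320 in THOC5-depleted cells. As for Gadd45a, stimulated control cells were the lowest sample. The serum ratio was 0.559 (log2 -0.84 ± 0.22) in control and 1.13 (log2 0.18 ± 0.20) in THOC5-depleted cells. A weaker probe (chr4:11092530-11092589, mm9) gave signals of 57.1 to 70.0 and ratios of 0.815 and 1.02, smaller differences in the same order.

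The other 3 genes varied least. Sesn2, a sestrin that restrains mTORC1 and is a target of p53 and ATF4 (chr4:132048858-132048917, mm9, - strand), had signals of 1200 and 1677 in control and 1075 and 1218 in THOC5-depleted cells. Ccng1, which encodes cyclin G1, a p53 target that takes part in turning p53 off (chr11:40562427-40562486, mm9, - strand), had 994 and 795 in control and 624 and 564 in THOC5-depleted cells. Trp53 itself (chr11:69404204-69404263, mm9, + strand) had 1006 and 822 in control and 720 and 665 in THOC5-depleted cells. All of these signals were well above background, and none of the 3 genes reached a 2-fold serum ratio on either array. The ratios of control and THOC5-depleted cells were 1.40 and 1.13 for Sesn2, 0.7997 and 0.903 for Ccng1, and 0.817 and 0.923 for Trp53. These are RNA levels in bulk samples, in which fewer cells of a type and less RNA per cell cannot be told apart, and they do not report p53 protein or its activity.

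Ordered by serum ratio, control cells formed steps. Cdkn1a stood above Gadd45g by 1.23 (log2), which was more than 2 combined software errors, and the next 4 genes, Gadd45g, Gdf15, Gadd45b and Mdm2, did not differ from their neighbours beyond that. Mdm2 stood above Sesn2 by 0.73 and Sesn2 above Trp53 by 0.77, and below these Trp53, Ccng1, Gadd45a and Trp53inp1 again did not differ from neighbour to neighbour. In THOC5-depleted cells 0 of the 9 neighbouring pairs differed by more than 2 combined software errors, from Gdf15 at 2.14 down to Ccng1 at 0.903.

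**Figure D2:**
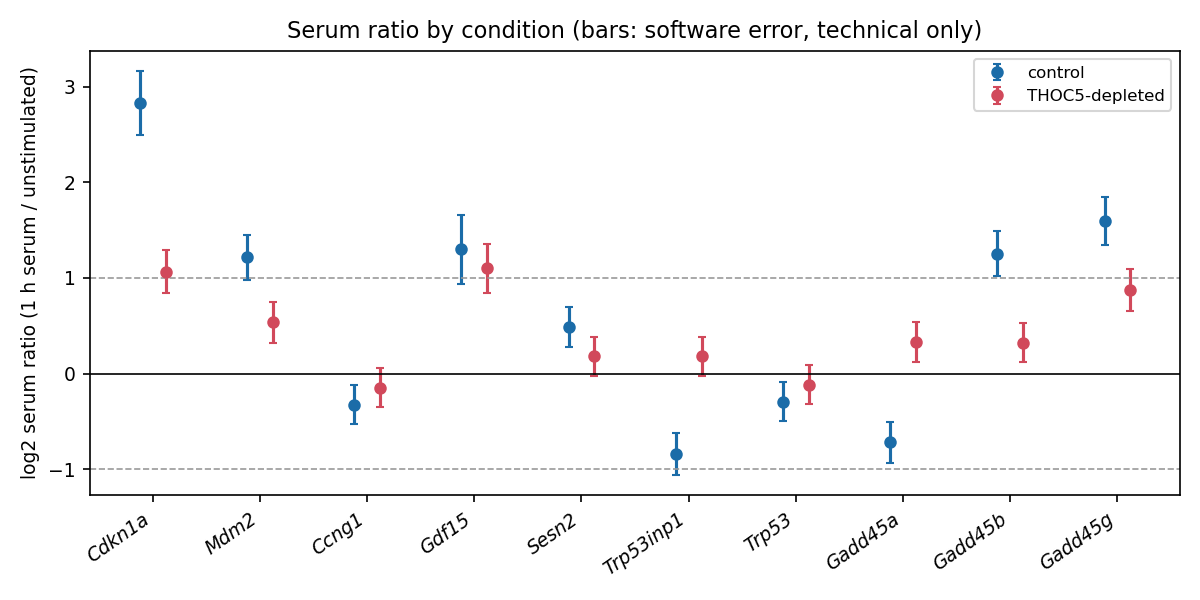
Log2 serum ratio (1 h of serum over unstimulated) of each gene in control (blue) and THOC5-depleted cells (red), with bars for the software error of 1 array and dashed lines at 2-fold. Control values run from -0.84 (Trp53inp1) to 2.83 (Cdkn1a), THOC5-depleted values from -0.15 (Ccng1) to 1.10 (Gdf15).

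In THOC5-depleted cells, 2 of the 10 genes (Gdf15 and Cdkn1a) rose by 2-fold or more and 0 fell, beside 1.22% and 0.626% of 18531 genes measurable on that array. The median serum log2 ratio of the 10 genes was 0.33, and that of all genes -0.01. By the software error, 8 of the 10 control ratios and 4 of the 10 ratios of depleted cells differed from 1 by more than 2 errors. No share of all genes under this rule stands beside these counts, so they do not single out the 10 genes. The calls on Gdf15 and Cdkn1a depend on where the zero point between the arrays is set. The 10 spike-in probes, which report RNAs added to both dyes, read 0.24 higher (log2) on the THOC5-depleted than on the control array. This is a difference between arrays and does not say which of them it belongs to. Taken off the THOC5-depleted array, it left 0 of the 10 genes and 0.766% of all genes raised by 2-fold. It moved every gene there alike, and the median of all genes became -0.26.

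The comparison of both arrays asks how much of the serum response remained in THOC5-depleted cells. The fold reduction, the serum ratio of control over that of THOC5-depleted cells, was 2 or more for 1 of the 10 genes, Cdkn1a, and 0.5 or less for 2, Gadd45a and Trp53inp1. Over 18005 genes measurable on both arrays the shares were 1.38% and 1.24%. The reduction of Cdkn1a was 3.39-fold (log2 1.76 ± 0.41), at rank 52 of 18005. Its second probe was not above background in Cy3 on either array, so it gives no value for this reduction. The reduction was above 2-fold in each of the 7 alternative settings that recomputed it from the brightest probe, from a log2 of 1.31 to 2.00.

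Below the threshold, the reduction was 1.91-fold for Gadd45b (log2 0.93 ± 0.31), 1.65-fold for Gadd45g (0.72 ± 0.33), 1.60-fold for Mdm2 (0.68 ± 0.31), 1.23-fold for Sesn2 (0.30 ± 0.29) and 1.15-fold for Gdf15 (0.20 ± 0.44). In 3 of 8 alternative settings the value of Gdf15 took the opposite sign (log2 -0.14 to -0.26). For 6 of the 10 genes the difference between arrays exceeded 2 software errors, and for Sesn2, Gdf15, Ccng1 and Trp53 it did not. The share of all genes past this limit is not given here, so nothing particular to the 10 is read from the count. With the log ratios of both arrays brought to 1 spread, Mdm2 (0.454) and Gadd45g (0.355) no longer exceeded 2 of these errors, and Cdkn1a became 1.31. The software error holds a 10% error per dye and no difference between cultures. Set beside the 502 genes that rose by 2-fold or more in control cells and were measurable on both arrays, whose median reduction was 1.88-fold, Cdkn1a lay above, Gadd45b close to it, and Gadd45g, Mdm2 and Gdf15 below it.

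Of the 10 genes, Gadd45a and Trp53inp1 had a serum ratio below 1 in control cells and above 1 in THOC5-depleted cells. So did 16.1% of the 18005 genes measurable on both arrays, and 30% of those below 1 in control cells. The log2 difference, control minus THOC5-depleted, was -1.05 ± 0.30 for Gadd45a and -1.02 ± 0.30 for Trp53inp1, both just past the 2-fold line, at ranks 199 and 213 from the lowest of 18005 genes. With the spike-in offset removed these became -0.80 and -0.78, and the ratio of Trp53inp1 in THOC5-depleted cells went just below 1 (log2 -0.06), where the median of all genes was -0.26. For Trp53inp1 the mean of its probes gave -0.67. The serum ratio was closer to 1 in THOC5-depleted than in control cells for all 10 genes, against 63.3% of all genes. Among genes measurable on both arrays that rose or fell by 2-fold or more in control cells, where 5 of the 10 belong, the shares were 93.8% and 94.7%. Choosing genes by a large ratio on 1 array raises such a share by itself, so nothing particular to the 10 genes is read from the count. With the spike-in offset removed this held for 8 of 10 and 40.7% of all genes, and with the log ratios of both arrays brought to 1 spread (a factor of 1.42) for 9 of 10 and 50.9%.

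**Figure D3:**
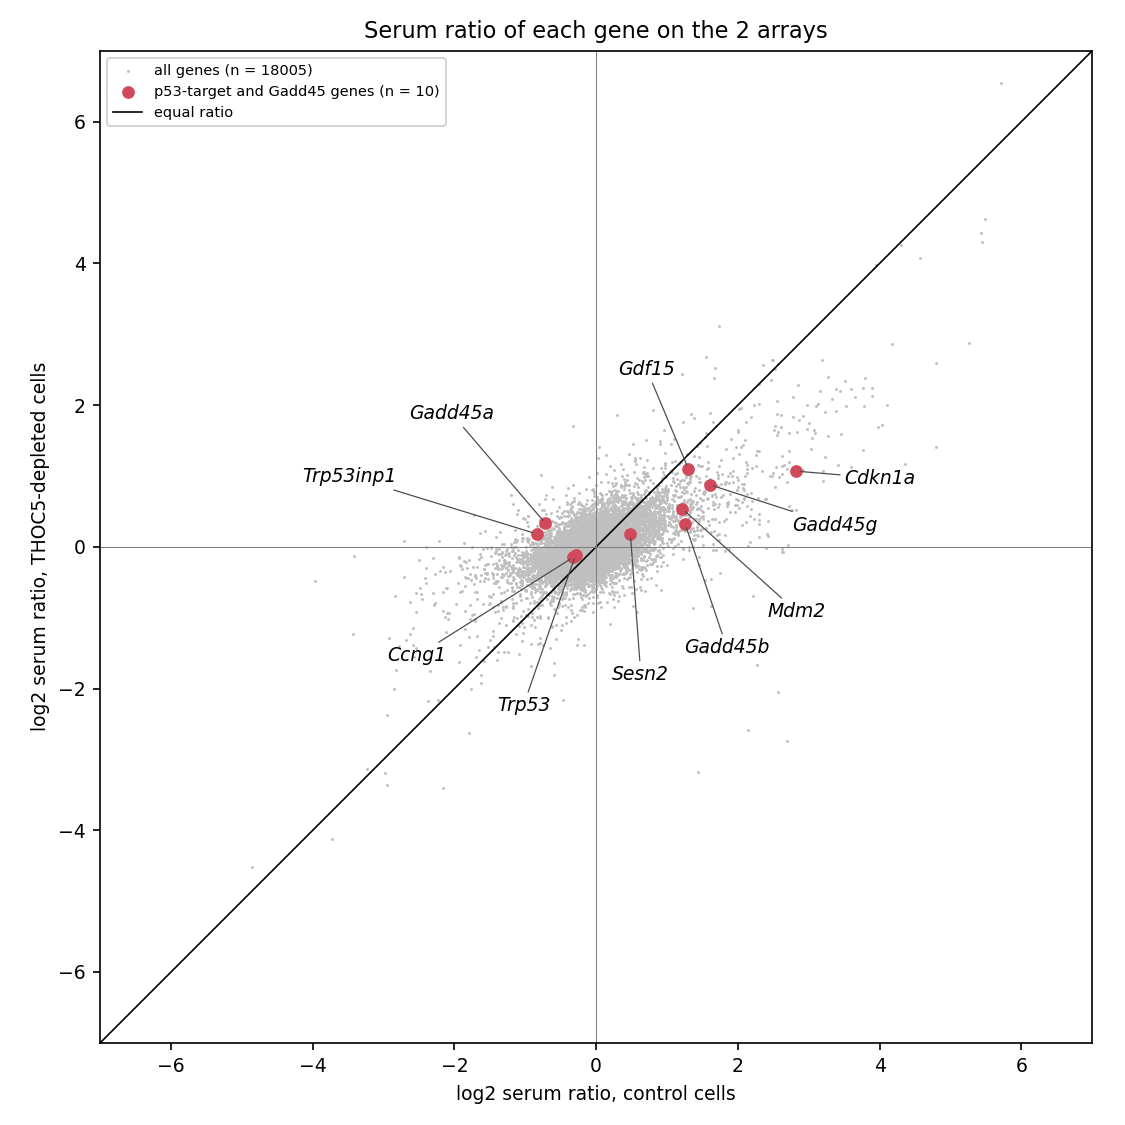
Log2 serum ratio of 18005 genes (grey points) in control cells (horizontal axis) and THOC5-depleted cells (vertical axis), with the 10 genes in red and the line of equal ratios. Genes below the line on the right were raised less in THOC5-depleted cells, Cdkn1a the most of the 10 (2.83 against 1.07), while Gadd45a and Trp53inp1 are to the left of 0 and above it.

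Levels were then compared across the arrays within each dye, after scaling by limma (method Aquantile). In unstimulated cells 1 of the 10 genes, Gdf15, was 2-fold or more higher in THOC5-depleted cells and 0 were lower, beside 3.07% and 3.27% of 19043 genes. The Gdf15 level was 2.37-fold higher (log2 1.24 ± 0.37), which fell to a log2 of 0.06 with the floor of 50 and 0.40 with the other background correction. Cdkn1a was 1.68-fold higher (log2 0.75 ± 0.20) and Gadd45a 1.63-fold higher (0.70 ± 0.20), below the threshold. Ccng1 was 1.32-fold lower (-0.40 ± 0.20), and the other 6 genes lay between -0.22 and 0.20.

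After 1 h of serum, Gadd45a and Gdf15 were 2-fold or more higher in THOC5-depleted cells and Cdkn1a was lower, that is 2 and 1 of the 10 genes beside 3.54% and 3.16% of 18664 genes. Gadd45a had the largest difference, 3.36-fold higher (log2 1.75 ± 0.20), at rank 271, and its log2 value ran from 1.43 to 1.75 over 7 alternatives. Gdf15 was 2.06-fold higher (1.04 ± 0.26), again with values of 0.21 under the floor and 0.56 with the other background correction. Cdkn1a was 2.02-fold lower (-1.01 ± 0.20), at the threshold, and its value ran from -1.29 without scaling to -0.17 for the mean of its 3 probes, 2 of which were near background.

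Gadd45b was 1.84-fold lower (-0.88 ± 0.20), Gadd45g 1.70-fold lower (-0.76 ± 0.20) and Mdm2 1.40-fold lower (-0.48 ± 0.20) in stimulated THOC5-depleted cells. In the unstimulated state the same 3 genes differed by 0.05, -0.04 and 0.20. The scaling leaves the ratio within each array unchanged. The contrast between both states therefore restates the fold reduction of a gene with the opposite sign and is no further comparison. Trp53inp1 was 1.76-fold higher after serum (0.82 ± 0.20) and 1.15-fold lower without it. Sesn2, Ccng1 and Trp53 were between -0.23 and -0.05 after serum. The median log2 level difference of the 10 genes was 0.11 without and -0.18 with serum, beside -0.01 and 0.00 over all genes. Without scaling, all genes had a median of -0.26 in Cy3 and -0.25 in Cy5, and the unscaled values of the 10 genes moved with it.

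**Figure D4:**
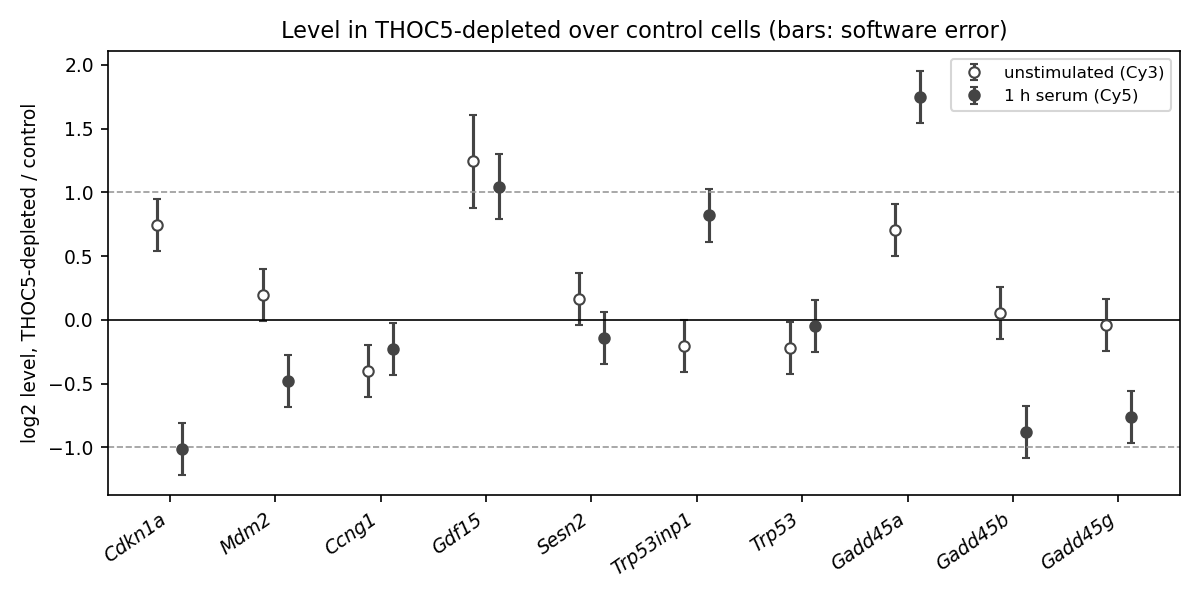
Log2 level in THOC5-depleted over control cells for each gene, in unstimulated (open circles, Cy3) and serum-stimulated cells (filled circles, Cy5), after Aquantile scaling, with bars for the software error and dashed lines at 2-fold. Filled circles lie below the open ones for Cdkn1a, Mdm2, Gadd45b and Gadd45g and above them for Gadd45a (1.75 against 0.70) and Trp53inp1 (0.82 against -0.20). The distance between both circles of a gene restates its fold reduction.

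The wider p53 pathway was described by lists of genes other than the 10. Among all genes, 2.89% rose and 2.29% fell in control cells, and 1.22% and 0.626% in THOC5-depleted cells. A fold reduction of 2 or more was found for 1.38%, and of 0.5 or less for 1.24%. Levels were higher for 3.07% and lower for 3.27% in unstimulated cells, and for 3.54% and 3.16% after serum. At such shares a count of 0 in a short list says little. Of 46 further p53 targets, 45 were measurable on the control array, and 3 rose by 2-fold or more (Btg2, Plk3 and Pmaip1) and 0 fell, with a median serum log2 ratio of -0.09. In THOC5-depleted cells 3 rose (Btg2, Plk3 and Plk2) and 0 fell, and 0 of 45 had a fold reduction past 2-fold in either direction. Btg2, an antiproliferative gene that serum also raises early, had signals of 2017 and 9874 on the control array and 1191 and 5859 on the other. The serum ratios were 4.89 and 4.92. Its fold reduction was 0.995, where that of Cdkn1a was 3.39. Pmaip1, the BH3-only death gene Noxa, had ratios of 3.52 and 1.84, a fold reduction of 1.91 that lay just below the threshold. Its stimulated level was 2.38-fold lower in THOC5-depleted cells. In unstimulated THOC5-depleted cells 0 of the 45 were 2-fold higher and 1 was lower, Rprm, a p53-induced gene of G2 arrest, at signals of 51.0 and 17.9. Dram1, a p53 target of autophagy, was 1.65-fold lower there.

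Of 29 regulators of p53, 1 rose by 2-fold in control cells (Cul9) and 1 fell (Chek2, the checkpoint kinase, at a ratio of 0.479), with a median log2 of 0.00. Cul9, a cytoplasmic ubiquitin ligase scaffold that binds p53, had weak signals of 29.1 and 273 in control cells and 28.3 and 68.2 in THOC5-depleted cells. Its serum ratios were 9.37 and 2.41, and its fold reduction of 3.88 was the only one past 2-fold in this list. Mdm4, the Mdm2 relative that inhibits p53, was the only regulator 2-fold higher in unstimulated THOC5-depleted cells, by 2.43-fold at signals of 34.4 and 74.9, and it was 2.67-fold higher after serum. Crebbp, a histone acetyltransferase that p53 recruits, was 1.47-fold higher in unstimulated cells. Cdkn2a, whose locus encodes the Mdm2 inhibitor Arf and is often lost when fibroblasts are immortalized, is named after its values were seen: it gave signals of 76945 and 58086 in control cells and 48732 and 39523 in THOC5-depleted cells.

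Of 18 Gadd45 partners and stress kinases on the array, 1 rose by 2-fold in control cells, Map2k3, a kinase that activates p38. In THOC5-depleted cells 0 rose. The Map2k3 signals were 1551 and 4141 in control and 1444 and 1755 in depleted cells, a fold reduction of 2.20. Map2k4, which activates JNK and p38, had serum ratios of 1.45 and 1.09. The level of 0 of the 18 genes differed by 2-fold in either dye, and Map2k7 and Map2k6 were 1.72-fold and 1.52-fold higher in unstimulated THOC5-depleted cells.

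The integrated stress response, which shares Gdf15 and Sesn2 with the p53 pathway as targets, had 17 of 18 genes measurable. Atf3, a transcription factor of this response and of the serum response, alone rose by 2-fold. Its ratio was 5.86 in control and 4.16 in THOC5-depleted cells. The median serum log2 ratio was 0.26 with and 0.34 without THOC5, and 0 of 17 had a fold reduction past 2-fold. Ppp1r15a, the phosphatase subunit that reverses the response, was 1.95-fold higher in unstimulated THOC5-depleted cells, and Sqstm1, an autophagy receptor, 1.48-fold. Trib3, a pseudokinase target of ATF4, was the only gene of the list 2-fold different in level, 2.06-fold higher after serum.

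The 9 paralogues of the 10 genes, 3 of which (Mdm4, Trp63 and Trp73) are also among the regulators and 1 of which (Sesn1) is among the targets, included 0 that rose or fell by 2-fold with serum on either array. Sesn1 had ratios of 0.706 and 0.963 where Sesn2 had 1.40 and 1.13. Ccng2, a cyclin G that is known to rise in quiescence, had signals of 378 and 276 in control and 335 and 423 in THOC5-depleted cells. As with Gadd45a and Trp53inp1, its ratio was below 1 in control cells (0.730) and above 1 in THOC5-depleted cells (1.26), and its fold reduction was 0.578. Cdkn1c, another inhibitor of the p21 family, had ratios of 0.824 and 0.869 and was 1.63-fold lower in unstimulated THOC5-depleted cells, where Cdkn1a was 1.68-fold higher.

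**Figure D5:**
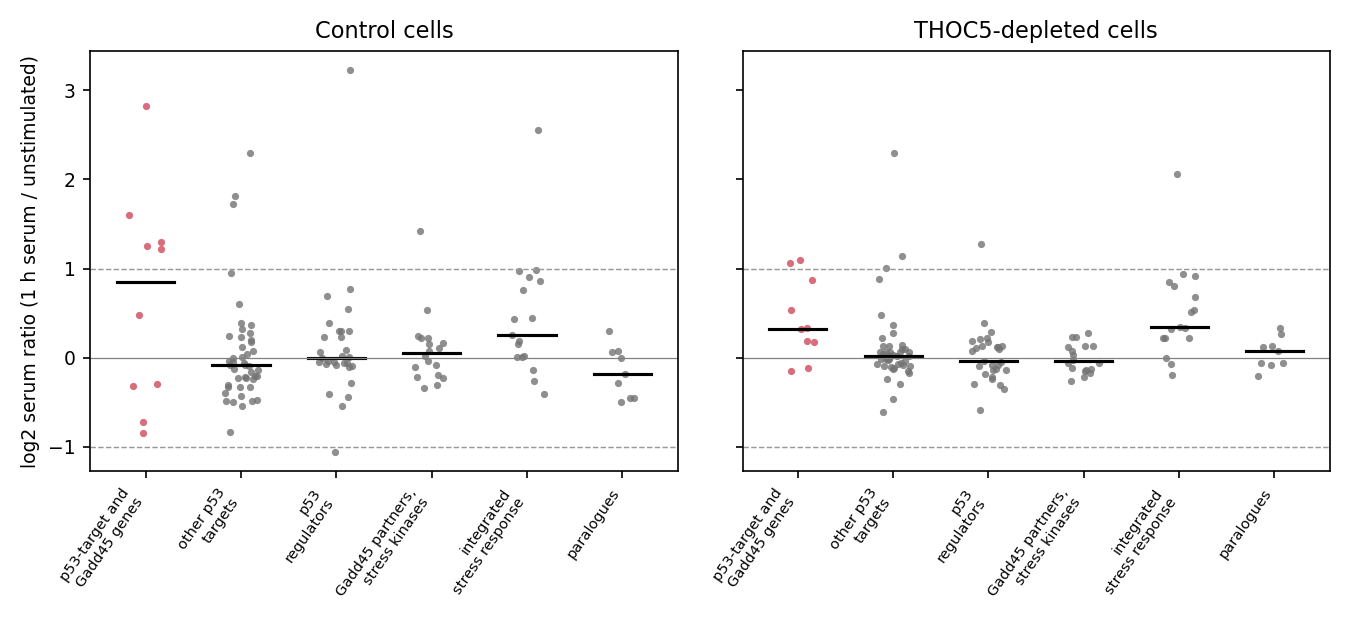
Log2 serum ratio in control (left) and THOC5-depleted cells (right) of the 10 genes (red) and of the genes in the 5 lists (grey, 1 point per gene measurable on both arrays), with a bar for each median and dashed lines at 2-fold. In control cells the median is 0.85 for the 10 genes and -0.09 for the other p53 targets, where Btg2, Plk3 and Pmaip1 lie above the upper dashed line.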

How the data were processed

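The 2 samples were 2 dual-colour Agilent arrays, 1 per condition. The authors deposited the output of Agilent Feature Extraction 10.7.3.1 (the version is in the submitters' processing notes), and its probes are placed on mm9. The processed signals in the deposited files are intensities that the software corrected for background and normalized between the dyes of an array (linear and LOWESS, as the file headers state), with no scaling between arrays. The software's log10 ratio and its error are also in the deposited files. The table of values that the authors deposited for the series holds 0 negative values (medians 0.029 and 0.023) and lay within 0.001 of the size of the scanner's log10 ratio for 84.8% of its rows in control and 86.0% in THOC5-depleted cells. What the other rows hold was not settled. It served only as an alternative with the scanner's sign.

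Outlier spots (239 and 234) were left out, spots of a probe averaged on the log2 scale, and the brightest probe taken per gene symbol. Of the 13 probes of the 10 genes, 12 had an accession in RefSeq, all under the same symbol. Levels were scaled by limma 3.58.1 (R 4.3.3), and the rest was computed with Python 3.11.15, numpy 2.4.6 and pandas 2.3.3. A call is a 2-fold change with at least 1 compared channel well above background. The number of arrays limits the precision. Named genes of a list are the 2 with the largest serum log2 ratio in control cells and the 2 with the largest unstimulated level difference, in absolute size and well above background in all 4 channels, and other genes counted as called are named too. The genes, lists and alternatives (background correction, dye normalization, floor, probes, outliers, detection, threshold, spread, spike-in offset and scaling) were chosen with earlier results of these data known. The averaging, probe choice and call were tested on simulated data for the control serum ratio alone, with changes placed in bright genes. Changes in weak signals and the other comparisons were not simulated.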

Additional observations from a re-analysis of the deposited data

Results flagged for a closer look

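Gadd45a and Trp53inp1 were flagged for the difference in their serum ratio between the arrays. Their ratio lay below 1 on the control array and above 1 on the THOC5-depleted array. That crossing alone is common: it held for 16.1% of the 18005 genes measurable on both, and for 30% of those below 1 in control cells. Crossing together with a 2-fold difference held for these 2 genes and for 0.383% of the 18005. The log2 serum ratio of control minus THOC5-depleted cells was -1.05 for Gadd45a (-0.72 against 0.33) and -1.02 for Trp53inp1 (-0.84 against 0.18). The values in THOC5-depleted cells had software errors of 0.21 for Gadd45a and 0.20 for Trp53inp1, so both lay within 2 errors of no change. With the spike-in offset removed they became 0.09 and -0.06. That setting moves every gene of the array by the same -0.24, and both values stayed above the median of all genes, -0.26. With 1 array per condition, the difference was not tested.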

How the results depend on the processing

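With 1 array per condition no array could be left out, and no paired analysis was possible because each condition has 1 sample. Of 136 recomputed counts and medians over the 10 genes, 111 kept their value within the software error or within 1.5 times the count, as did 309 of 360 single gene values. No called value took the opposite sign, but a floor of 50 set the serum ratio of Gdf15 in control cells to a log2 of 0.0. Normexp (offset 50) with loess gave a median serum log2 ratio of 0.472 in control cells, 1 gene raised in THOC5-depleted cells, 1 fold reduction of 0.5 or less, 0 genes higher in unstimulated and 1 higher and 0 lower in stimulated THOC5-depleted cells (0.523%, 0.328%, 0.698%, 0.889% and 1.02% of all genes). A floor of 50 gave 0.241 for that median, 1 gene raised in THOC5-depleted cells, and 0 and 1 genes higher in unstimulated and stimulated cells (0.604%, 0.751% and 1.06% of all genes). In both settings Gdf15, whose signals are near background, lost its calls. The mean over all probes gave 1 fold reduction of 0.5 or less, 2 genes higher in unstimulated and 0 lower in stimulated cells (1.10%, 2.96% and 3.0% of all genes), since weak Cdkn1a and Trp53inp1 probes enter it. Removing the spike-in offset, which moved the median of all genes in THOC5-depleted cells by -0.24, gave a median of 0.083, 0 genes raised there (0.766% of all genes), and 2 fold reductions of 2 or more (2.555%) and 0 of 0.5 or less (0.628%). Without scaling, which moved all genes by -0.25, the median level difference was -0.204 in unstimulated and -0.478 in stimulated cells, with 1 gene higher (2.69% of all genes) and 2 lower (4.58%) in the latter. At 1.5-fold, 2 genes fell in control cells (6.915% of all genes), 4 had the larger fold reduction (4.25%), 3 were higher in unstimulated (6.79%) and 3 lower in stimulated cells (7.32%). The cause of the other changes was not tested.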
